A study of Sus scrofa with 28 samples.

Results

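The genes described here are the interleukins and interleukin receptors, taken as every gene whose symbol in the deposited count tables starts with IL and a digit. This rule found 47 of 17603 genes: 17 ligands, 26 receptor chains, 3 antagonists or decoys (IL1R2, IL18BP and IL13RA2) and the enzyme IL4I1, which carries an interleukin name but is an amino acid oxidase. The rule misses 4 genes without a symbol there, which a reference names IL9R, IL11RA, IL2RG and IL2RB. No gene there carried the symbol IL1B, IL1RN or IL4, so the results below, those of the IL-1 family included, do not cover these. Bulk polyA RNA of 14 wild-type Landrace pigs, 3 months old and of either sex, was sequenced in 28 libraries, 1 from infarcted and 1 from remote left ventricle of each animal. A balloon closed the left anterior descending coronary artery for 60 minutes, and at reperfusion each animal received recombinant human agrin (rhAgrin, an extracellular matrix protein) at 33 µg per kg or the vehicle, which the sample labels name PBS. Hearts were taken on day 3 or day 28, with 3 PBS and 4 rhAgrin animals at each time, and zones were told apart by tetrazolium staining. The groups were therefore PBS day 3, rhAgrin day 3, PBS day 28 and rhAgrin day 28, each with an infarct and a remote library per animal, and all of them, controls included, had undergone ischemia and reperfusion. No library analysed here came from an uninjured heart.

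Interleukins are secreted or released signalling proteins through which leukocytes and tissue cells direct inflammation and repair. Members of the IL-1 family (IL1A, IL33, IL18) are released from stressed or dying cells and act through paired receptor chains, and IL1R2 binds ligand without signalling. The IL-6 group (IL6, IL11, IL27) signals through the shared chain IL6ST, also called gp130, to STAT3. Ligands of the common gamma chain group (IL7 and IL15, with IL13 counted here) act through JAK kinases, mostly in lymphocytes, and IL10 restrains macrophages. In the heart after infarction, dying cardiomyocytes, neutrophils, macrophages and fibroblasts are all known sources or targets of these signals.

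The proximal promoters of the 3 members with the largest rise in PBS animals on day 3 are shown as the sequence context of that rise, in the RefSeq annotation of the pig genome Sscrofa11.1. Each run is the 250 bases before the annotated start, on the strand of the gene, with matches to the searched motifs in capitals. The letters searched on both strands were TGANTCA for AP-1, TTCNNNGAA for STAT and the kappa-B consensus for NF-kB. IL7R lies on the plus strand and its window is chr16:21299891-21300140, IL11 lies on the minus strand with chr6:59544910-59545159, and IL6 lies on the plus strand with chr9:91506171-91506420.
IL7R: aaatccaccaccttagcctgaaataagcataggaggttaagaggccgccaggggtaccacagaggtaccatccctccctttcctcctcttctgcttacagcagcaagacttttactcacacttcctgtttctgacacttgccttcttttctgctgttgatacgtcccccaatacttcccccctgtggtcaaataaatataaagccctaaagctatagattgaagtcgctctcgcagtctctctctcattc
IL11: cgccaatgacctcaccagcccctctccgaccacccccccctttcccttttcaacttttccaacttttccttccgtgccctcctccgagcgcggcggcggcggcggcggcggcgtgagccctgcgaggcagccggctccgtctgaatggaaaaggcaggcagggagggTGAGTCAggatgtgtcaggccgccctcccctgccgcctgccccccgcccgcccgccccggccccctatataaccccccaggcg
IL6: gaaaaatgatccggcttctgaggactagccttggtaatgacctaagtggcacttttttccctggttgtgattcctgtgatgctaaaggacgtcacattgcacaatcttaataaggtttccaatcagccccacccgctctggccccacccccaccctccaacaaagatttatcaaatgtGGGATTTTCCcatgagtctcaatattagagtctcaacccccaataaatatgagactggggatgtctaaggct
The IL7R window held none of these letters, the IL11 window held 1 AP-1 match starting 83 bases before the start, and the IL6 window held 1 NF-kB match starting 72 bases before the start. AP-1 letters were present in 12.8% of the 47 member promoters and in 5.46% of all 20619 protein-coding promoters, STAT letters in 6.38% and 6.38%, and the NF-kB consensus in 21.3% and 13.8%. A match describes letters and says nothing of binding.

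Library totals ranged from 15.38 to 34.77 M counts, with a median of 23.90 M counts, and the members together took 0.1058 to 0.1333% of all counts in infarct libraries of day 3 against 0.04565 to 0.05982% in remote ones. Values are given as CPM, counts per M library counts after edgeR's TMM scaling (trimmed mean of M-values), and listed in the order of animals 571, 573 and 575 for PBS day 3, 570, 572, 576 and 577 for rhAgrin day 3, 523, 536 and 547 for PBS day 28, and 519, 522, 544 and 548 for rhAgrin day 28. Fold changes are from edgeR's quasi-likelihood test, infarct against remote within animals unless another comparison is named, ± the standard error (SE) of the fit, with n = 3 PBS and 4 rhAgrin animals, and a gene rose or fell at a Benjamini-Hochberg adjusted p under 0.05 over all genes tested. Of the 47 members, 39 passed the filter on low counts. 3 animals stood out before any comparison. PBS animal 573 had Y-linked counts (KDM5D 173, ZFY 328, EIF1AY 232) in its infarct library and 0 in its remote library, so its libraries disagree about their source. The infarct column of rhAgrin animal 577 carried a different letter from the others. The day 28 infarct library of PBS animal 523 stood apart from its group, with mitochondrial transcripts at 6.825% of counts against 25.58 and 28.35% in the others. In bulk RNA fewer cells of a type and less RNA per cell cannot be told apart.

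On day 3, 20 of the 39 tested members rose in the infarct zone of PBS animals and 4 fell. Of all 15409 genes tested, 34.6% rose and 32.2% fell. In rhAgrin animals 26 members rose and 4 fell, against 37.6% and 33.1% of all genes. All 20 members that rose in PBS animals also rose in rhAgrin animals, but the matching share of all genes was not counted. Without animals 573 and 577, 21 rose and 4 fell in PBS and 24 rose and 3 fell in rhAgrin animals. With library totals alone, which shifts the median of all genes to 0.69 and 0.764 on the log2 scale, 25 rose and 1 fell in PBS and 30 rose and 1 fell in rhAgrin animals, where 8768 and 9588 of all 15409 genes rose and 2583 and 2407 fell. At the study's thresholds (a log2 change of 1 or more in size and a highest count above 30, besides the adjusted p) 20 members were called in PBS and 19 in rhAgrin animals, where 34.7% and 34.9% of all genes were. The median log2 fold change of the 39 members was 1.04 in PBS and 1.31 in rhAgrin animals, where the median of all genes was 0.04 and 0.06. Of the 8 tested IL-1 family members 6 rose in PBS and 8 in rhAgrin animals, of the 7 tested gp130 members 4 and 4, and of the 7 tested IL-17 members 2 and 5, whereas none of the 2 tested IL-12 family members passed the test in either treatment.

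**Figure D1:**
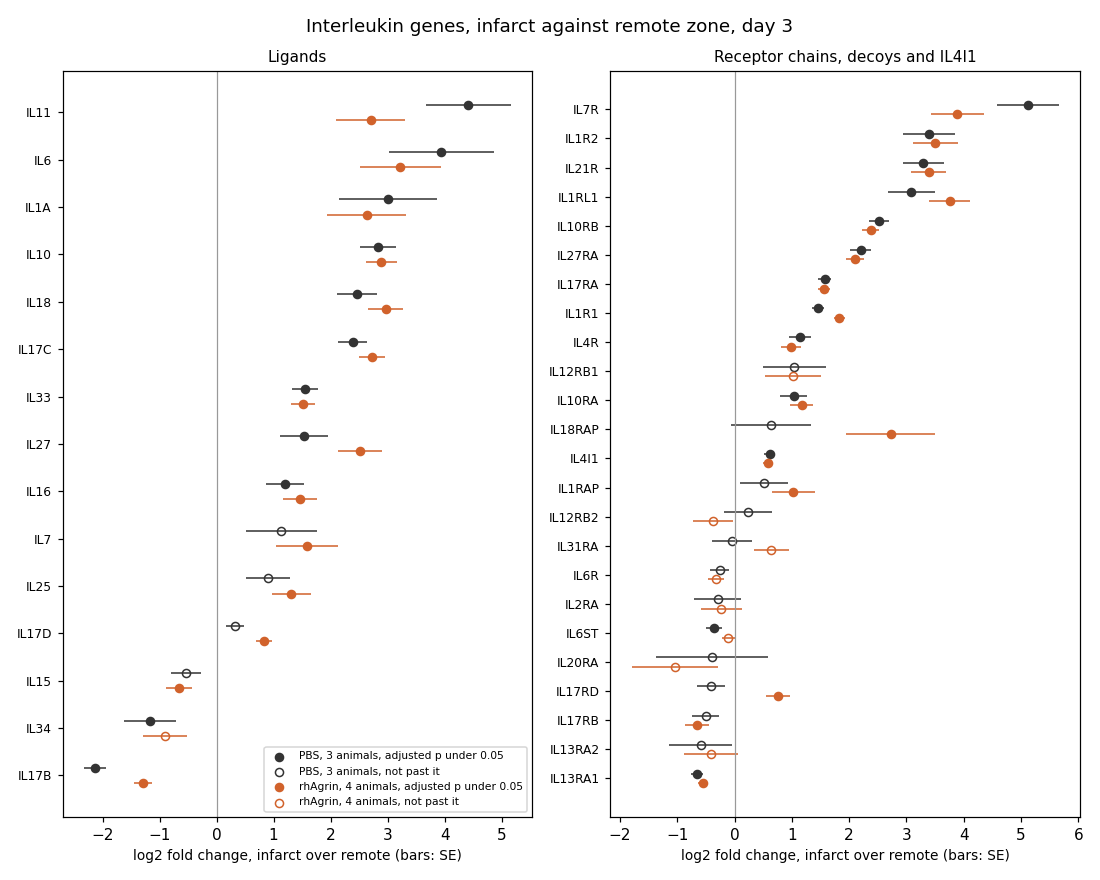
Log2 fold changes of the 39 tested members between the infarct and remote zone on day 3, in PBS (black, 3 animals) and rhAgrin (orange, 4 animals), with ligands on the left and receptors, decoys and IL4I1 on the right. Filled points passed adjusted p under 0.05 and bars are the SE. IL11 and IL7R head the panels in PBS animals at 4.42 and 5.12, and IL17B is lowest at -2.13.

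Among the ligands, IL6, the main inducer of the acute phase response, was nearly absent from remote muscle. PBS infarcts held IL6 at 4.03, 1.87 and 3.34 CPM on day 3, against 0.17, 0.389 and 0.0892 CPM in their remote zones. With rhAgrin, IL6 was at 5.97, 1.67, 2.35 and 3.41 CPM in the infarct and 0.904, 0.3, 0.172 and 0.138 CPM in the remote zone. Every infarct value exceeded every remote value, and the rise was 3.94 ± 0.92 in PBS and 3.22 ± 0.71 in rhAgrin animals on the log2 scale (adjusted p = 0.00174 and 0.00106). For IL6 the day 28 values were 4.6, 0.799 and 0.832 CPM in PBS infarct and 0.292, 0.132 and 2.26 CPM in PBS remote tissue. The rhAgrin IL6 values were 0.375, 0.621, 0.245 and 0.289 CPM in infarct and 0.21, 0.0728, 0.188 and 0.175 CPM in remote tissue. Among PBS animals on day 28 the high values were the remote library of animal 547 and the infarct library of animal 523, so the zones overlapped, and neither treatment passed the test.

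IL11, a gp130 ligand that acts on fibroblasts, had a similar pattern at lower levels. IL11 measured 2.79, 1.17 and 1.4 CPM in the infarct and 0.0566, 0.156 and 0.0446 CPM in the remote zone of PBS animals on day 3. rhAgrin animals had IL11 at 0.462, 0.53, 1.79 and 1.21 CPM in the infarct and 0.0532, 0.25, 0.172 and 0.0922 CPM in the remote zone. It rose by 4.42 ± 0.75 in PBS and 2.699 ± 0.60 in rhAgrin animals (adjusted p = 0.000123 and 0.00102), with infarct and remote libraries apart in both. The PBS remote libraries held only 1, 2 and 1 counts of IL11, so the size of its fitted rise depends on the prior count. On day 28 IL11 was at 0.561, 0.166 and 0.378 CPM in the PBS infarct libraries and 0.219, 0.264 and 0.181 CPM in the remote ones. With rhAgrin, IL11 was at 0, 0.217, 0.0817 and 0.253 CPM in the infarct and 0.0841, 0, 0.0937 and 0.175 CPM in the remote zone. All of these lay below the lowest PBS day 3 infarct value of 1.17 CPM, but the 0.561 CPM of PBS animal 523 exceeded the rhAgrin day 3 infarct values of 0.462 and 0.53 CPM.

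IL1A, an alarmin kept in cells until they are damaged, was low in all libraries. PBS infarcts held IL1A at 1.8, 0.217 and 2.31 CPM on day 3, against 0.113, 0.233 and 0.178 CPM in their remote zones. The rhAgrin IL1A values were 2.31, 0.341, 1.49 and 1.47 CPM in infarct and 0.638, 0.2, 0.115 and 0 CPM in remote tissue. Animal 573, whose libraries disagree about their source, was the PBS animal whose infarct value was not above its remote value. The rise was 3.00 ± 0.86 (adjusted p = 0.007) in PBS and 2.63 ± 0.69 (adjusted p = 0.00345) in rhAgrin animals, and without PBS animal 571 or 575 the PBS call was lost (adjusted p = 0.0647 and 0.0929). For IL1A the day 28 values were 0.912, 0.566 and 0.416 CPM in PBS infarct and 0.11, 0.22 and 0.316 CPM in PBS remote tissue. rhAgrin animals had IL1A at 0.214, 0.341, 0.45 and 0.325 CPM in the infarct and 0.42, 0.109, 0.0937 and 0.306 CPM in the remote zone. The values did not pass the test at day 28.

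IL33, the alarmin ligand of IL1RL1, was present in every library. IL33 measured 20.04, 18.2 and 20.7 CPM in the infarct and 7.64, 5.06 and 7.58 CPM in the remote zone of PBS animals on day 3. In rhAgrin animals IL33 was at 10.02, 17.7, 28.8 and 22.4 CPM and 6.7, 4.75, 9.85 and 5.58 CPM in the same zones. It rose by 1.55 ± 0.23 in PBS and 1.51 ± 0.20 in rhAgrin animals (adjusted p = 4.13e-05 and 1.12e-05), and no infarct value was as low as a remote value of the same treatment. On day 28 IL33 was at 18.6, 7.22 and 10.4 CPM in the PBS infarct libraries and 19.3, 7.47 and 6.32 CPM in the remote ones. The rhAgrin IL33 values were 8.99, 6.67, 9.89 and 12.2 CPM in infarct and 7.48, 7.75, 8.998 and 10.1 CPM in remote tissue. In PBS animal 523 both zones were high, at 18.6 and 19.3 CPM, and the zones overlapped in both treatments.

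IL18, an inducer of interferon gamma that inflammasomes activate, rose by 2.47 ± 0.35 in PBS and 2.96 ± 0.31 in rhAgrin animals (adjusted p = 2.48e-05 and 1.07e-06). PBS infarcts held IL18 at 3.26, 2.43 and 3.38 CPM on day 3, against 0.566, 0.389 and 0.669 CPM in their remote zones. rhAgrin animals had IL18 at 3.01, 2.05, 4.81 and 3.57 CPM in the infarct and 0.266, 0.3, 0.344 and 0.784 CPM in the remote zone. The lowest infarct value, 2.04 CPM, was above the highest remote value, 0.784 CPM. For IL18 the day 28 values were 3.65, 0.998 and 2.08 CPM in PBS infarct and 1.5, 0.527 and 0.812 CPM in PBS remote tissue. In rhAgrin animals IL18 was at 0.214, 1.46, 1.14 and 0.94 CPM and 0.631, 1.02, 0.75 and 0.743 CPM in the same zones. In PBS animals each infarct library exceeded its own remote library on day 28, with a rise of 1.21 ± 0.32 (adjusted p = 0.0158), while rhAgrin animals gave 0.18 ± 0.30 and did not pass the test.

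IL10, which limits cytokine production by macrophages, was low in remote muscle. IL10 measured 7.51, 3.13 and 2.64 CPM in the infarct and 0.849, 0.311 and 0.58 CPM in the remote zone of PBS animals on day 3. With rhAgrin, IL10 was at 5.36, 2.69, 2.72 and 3.44 CPM in the infarct and 0.532, 0.55, 0.515 and 0.277 CPM in the remote zone. It rose by 2.83 ± 0.32 and 2.89 ± 0.28 (adjusted p = 2.88e-06 and 4.77e-07), and the highest infarct value, 7.51 CPM, was that of PBS animal 571. On day 28 IL10 was at 1.9, 0.499 and 1.25 CPM in the PBS infarct libraries and 0.84, 0.307 and 0.858 CPM in the remote ones. rhAgrin animals had IL10 at 0.428, 0.807, 0.695 and 1.08 CPM in the infarct and 0.589, 0.582, 0.609 and 0.612 CPM in the remote zone. No test of the zones passed on day 28.

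IL17C, a member of the IL-17 family known from epithelial cells, also rose in both treatments on day 3. PBS infarcts held IL17C at 13.8, 12.03 and 11.6 CPM on day 3, against 2.1, 3.58 and 1.78 CPM in their remote zones. In rhAgrin animals IL17C was at 12.8, 10.8, 10.6 and 12.2 CPM and 1.17, 1.45, 1.83 and 2.72 CPM in the same zones. The rise of 2.38 ± 0.26 in PBS and 2.72 ± 0.23 in rhAgrin animals (adjusted p = 1.94e-06 and 1.23e-07) separated the zones completely. For IL17C the day 28 values were 7.12, 3.19 and 3.93 CPM in PBS infarct and 3.14, 1.89 and 1.81 CPM in PBS remote tissue. With rhAgrin, IL17C was at 1.39, 1.955, 2.04 and 3.65 CPM in the infarct and 1.89, 2.33, 1.59 and 2.62 CPM in the remote zone. On day 28 it rose only in PBS animals, by 1.03 ± 0.25 (adjusted p = 0.0106), and the difference between treatments in this rise did not pass the test (adjusted p = 0.128).

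IL16, a ligand of CD4 cut from a cytoplasmic precursor, was found at moderate levels. IL16 measured 22.1, 19.5 and 14.4 CPM in the infarct and 8.55, 6.77 and 8.74 CPM in the remote zone of PBS animals on day 3. The rhAgrin IL16 values were 25.4, 21.5, 9.85 and 16.1 CPM in infarct and 5.05, 5.4, 9.79 and 5.67 CPM in remote tissue. It rose by 1.20 ± 0.34 and 1.47 ± 0.30 (adjusted p = 0.00625 and 0.000605), with the zones apart, although rhAgrin animal 576 reached 9.85 CPM in the infarct and 9.79 CPM in the remote zone. Without animals 573 and 577 the PBS value was 1.04 with an adjusted p of 0.0531. On day 28 IL16 was at 14.9, 11.4 and 12.9 CPM in the PBS infarct libraries and 16, 6.81 and 8.85 CPM in the remote ones. In rhAgrin animals IL16 was at 7.17, 10.2, 10.5 and 10.99 CPM and 9.25, 11.3, 7.78 and 8.35 CPM in the same zones. The zones overlapped in rhAgrin and in PBS animals.

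3 ligands were lower in the infarct. IL17B, whose annotated exons share 4326 of 17189 bases with GRPEL2 on the opposite strand, so that without strand information their reads cannot be told apart, fell by 2.13 in PBS and by 1.29 in rhAgrin animals (SE 0.20 and 0.17, adjusted p = 5.05e-07 and 7.14e-06). PBS infarcts held IL17B at 5.18, 9.51 and 8.3 CPM on day 3, against 18.7, 66.5 and 27.5 CPM in their remote zones. With rhAgrin, IL17B was at 8.13, 10.9, 13.9 and 10.6 CPM in the infarct and 25.6, 22.1, 38.03 and 22.1 CPM in the remote zone. All remote values exceeded all infarct values within a treatment. For IL17B the day 28 values were 25.5, 16.97 and 14.9 CPM in PBS infarct and 28.5, 20.2 and 20.99 CPM in PBS remote tissue. The rhAgrin IL17B values were 43.1, 26.9, 27.3 and 20.3 CPM in infarct and 37.7, 34, 35.2 and 26.1 CPM in remote tissue. On day 28 the zones overlapped.

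IL34, a second ligand of the macrophage receptor CSF1R, shares 2056 of its 9541 exonic bases with MTSS1L on the opposite strand. IL34 measured 14.2, 29.8 and 17 CPM in the infarct and 55.8, 27.7 and 51.1 CPM in the remote zone of PBS animals on day 3. rhAgrin animals had IL34 at 30.5, 25.6, 23.5 and 20.2 CPM in the infarct and 33.03, 66.5, 25.2 and 80.6 CPM in the remote zone. It fell by 1.17 in PBS animals (SE 0.46, adjusted p = 0.0357), but animal 573 was higher in the infarct than in its remote library, and the value lost the test without animal 571 or 575 and in a fit of that group alone. In rhAgrin animals it was -0.90 ± 0.39 (adjusted p = 0.0524), not past the threshold, but it was called lower by DESeq2, with DESeq2's size factors, with no block, in the separate fit and without animal 570 or 576. With library totals alone the PBS value was -0.519 (adjusted p = 0.335). On day 28 IL34 was at 36.1, 54.04 and 51.3 CPM in the PBS infarct libraries and 48.3, 38.1 and 31.3 CPM in the remote ones. With rhAgrin, IL34 was at 29.4, 68.03, 44.1 and 58.98 CPM in the infarct and 59.5, 49.4, 31.3 and 36.9 CPM in the remote zone. Neither treatment differed between zones at the threshold on day 28.

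IL15, which sustains natural killer and memory T cells, lay between 0.999 and 5.04 CPM in all 28 libraries. PBS infarcts held IL15 at 1.02, 0.999 and 1.4 CPM on day 3, against 1.53, 1.71 and 1.74 CPM in their remote zones. The rhAgrin IL15 values were 1.23, 1.02, 1.01 and 1.21 CPM in infarct and 1.49, 1.3, 2.23 and 2.17 CPM in remote tissue. It fell by 0.66 in rhAgrin animals (SE 0.23, adjusted p = 0.0175) and was -0.54 ± 0.27 in PBS animals (adjusted p = 0.0851), and with library totals alone the rhAgrin value was 0.044, of the opposite sign. The rhAgrin call was also lost without animal 576 or 577 (adjusted p = 0.102 and 0.0686). For IL15 the day 28 values were 1.75, 1.2 and 2.38 CPM in PBS infarct and 5.04, 1.76 and 3.07 CPM in PBS remote tissue. rhAgrin animals had IL15 at 2.52, 1.77, 2.25 and 2.13 CPM in the infarct and 2.19, 2.33, 2.16 and 2.54 CPM in the remote zone. In PBS animals on day 28 it fell by 0.83 (SE 0.24, adjusted p = 0.0246). This value lost the test without animal 523, whose remote library held 5.04 CPM.

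**Figure D2:**
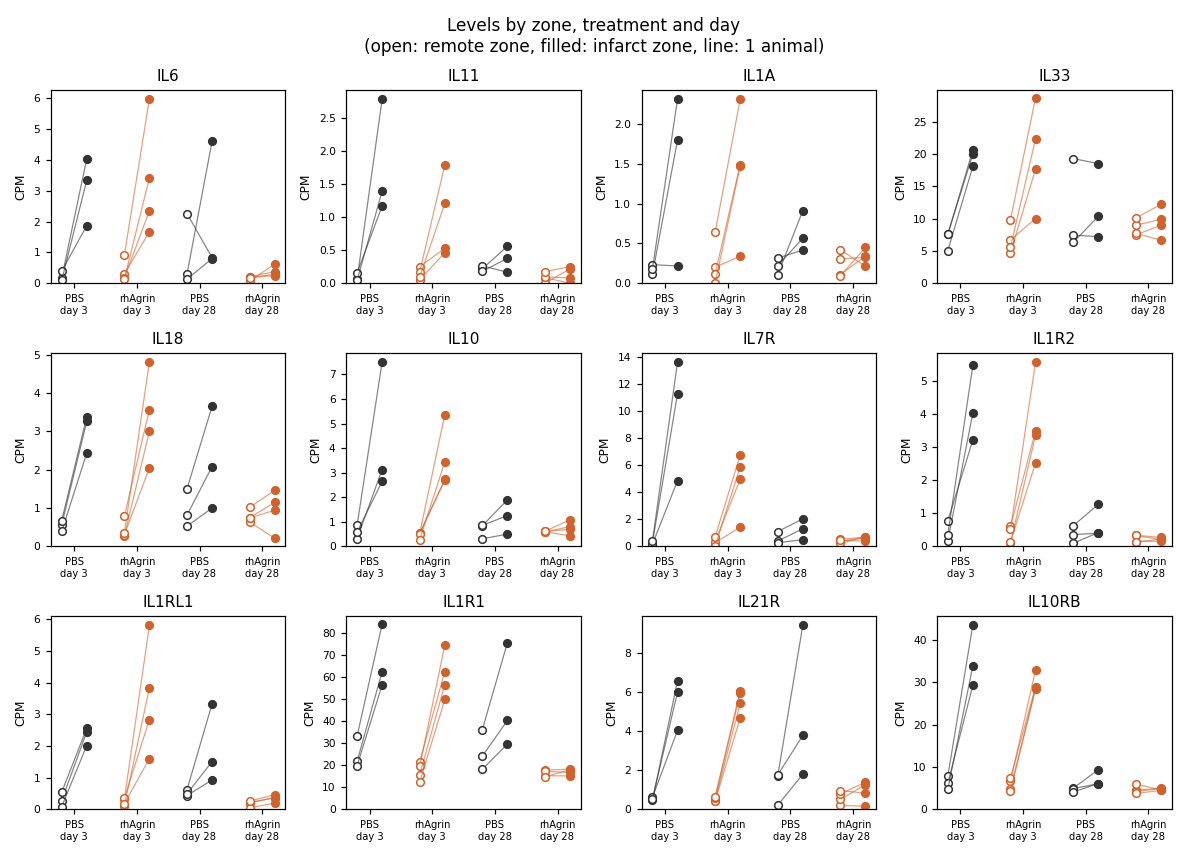
CPM of 12 members in each library, with remote (open) and infarct (filled) values of an animal joined by a line, on a linear axis that starts at 0, for PBS (black) and rhAgrin (orange) on day 3 and day 28. In every panel but IL1A the day 3 infarct values lie above every remote value of their day. On day 28 the highest infarct value is that of PBS animal 523 in all 12 panels.

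Of the receptor chains, IL7R, the alpha chain for IL7 and TSLP on lymphocytes, had the largest rise of all members. IL7R measured 11.3, 4.86 and 13.6 CPM in the infarct and 0.283, 0.156 and 0.402 CPM in the remote zone of PBS animals on day 3. In rhAgrin animals IL7R was at 1.43, 4.96, 6.75 and 5.89 CPM and 0.266, 0.35, 0.687 and 0 CPM in the same zones. PBS animals rose by 5.12 ± 0.54 and rhAgrin animals by 3.89 ± 0.46 (adjusted p = 1.55e-06 and 3.44e-06). Infarct and remote libraries did not overlap, although rhAgrin animal 570 reached only 1.43 CPM. IL7R shares 139 of 1996 exonic bases with LOC106508147 on the opposite strand. On day 28 IL7R was at 2.04, 1.3 and 0.492 CPM in the PBS infarct libraries and 1.1, 0.395 and 0.271 CPM in the remote ones. The rhAgrin IL7R values were 0.642, 0.714, 0.695 and 0.398 CPM in infarct and 0.378, 0.218, 0.516 and 0.437 CPM in remote tissue. These lay below the PBS day 3 infarct values of 4.86 CPM and more, but the 2.04 CPM of PBS animal 523 exceeded the 1.43 CPM of rhAgrin animal 570 on day 3.

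IL21R, a lymphocyte and myeloid receptor for IL21, rose by 3.29 ± 0.36 and 3.39 ± 0.31 (adjusted p = 2.19e-06 and 2.68e-07). PBS infarcts held IL21R at 4.03, 6.56 and 5.99 CPM on day 3, against 0.623, 0.467 and 0.535 CPM in their remote zones. rhAgrin animals had IL21R at 4.66, 5.42, 5.93 and 6.06 CPM in the infarct and 0.426, 0.45, 0.573 and 0.645 CPM in the remote zone. The infarct values, 4.03 to 6.56 CPM, were all far above the remote values of at most 0.645 CPM. For IL21R the day 28 values were 9.4, 1.8 and 3.78 CPM in PBS infarct and 1.72, 0.22 and 1.76 CPM in PBS remote tissue. In rhAgrin animals IL21R was at 0.161, 1.27, 1.39 and 0.831 CPM and 0.21, 0.51, 0.797 and 0.962 CPM in the same zones. In PBS animals on day 28 all 3 infarct libraries still exceeded every remote library, with a rise of 2.04 ± 0.33 (adjusted p = 0.00134), whereas in rhAgrin animals the zones overlapped.

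IL1R1, the signalling receptor for IL1A, was measured at 12.4 CPM or more in every library. IL1R1 measured 62.4, 83.99 and 56.5 CPM in the infarct and 21.7, 33.2 and 19.8 CPM in the remote zone of PBS animals on day 3. With rhAgrin, IL1R1 was at 62.5, 74.4, 56.6 and 49.9 CPM in the infarct and 21.5, 19.7, 15.6 and 12.4 CPM in the remote zone. It rose by 1.46 ± 0.11 in PBS and 1.83 ± 0.10 in rhAgrin animals (adjusted p = 7.21e-08 and 1.61e-09), in every animal and with the zones apart. On day 28 IL1R1 was at 75.6, 40.3 and 29.6 CPM in the PBS infarct libraries and 36.2, 24.2 and 18.3 CPM in the remote ones. rhAgrin animals had IL1R1 at 18.4, 15.2, 16.8 and 18.03 CPM in the infarct and 17.7, 15.3, 17.3 and 14.8 CPM in the remote zone. The 3 PBS animals were each higher in the infarct, with a rise of 0.83 ± 0.11 (adjusted p = 0.000392), and the 4 rhAgrin animals gave 0.07 ± 0.09, with 2 of the 4 higher in the infarct.

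IL1RL1, the receptor of IL33 known as ST2, was at 0.621 CPM or less in the remote libraries. PBS infarcts held IL1RL1 at 2.45, 2.56 and 2.02 CPM on day 3, against 0.283, 0.545 and 0.0892 CPM in their remote zones. In rhAgrin animals IL1RL1 was at 5.82, 2.84, 3.84 and 1.6 CPM and 0.319, 0.35, 0.115 and 0.184 CPM in the same zones. It rose by 3.09 ± 0.42 and 3.75 ± 0.36 (adjusted p = 1.54e-05 and 4.47e-07), and no remote library reached an infarct value. For IL1RL1 the day 28 values were 3.33, 0.932 and 1.51 CPM in PBS infarct and 0.621, 0.439 and 0.497 CPM in PBS remote tissue. With rhAgrin, IL1RL1 was at 0.375, 0.372, 0.204 and 0.47 CPM in the infarct and 0.21, 0.218, 0.0469 and 0.262 CPM in the remote zone. The PBS zones were still apart on day 28, with a rise of 1.77 ± 0.37 (adjusted p = 0.0047).

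IL1R2, the decoy that captures IL1 without signalling, rose in both treatments on day 3. IL1R2 measured 4.03, 3.21 and 5.47 CPM in the infarct and 0.17, 0.778 and 0.357 CPM in the remote zone of PBS animals on day 3. The rhAgrin IL1R2 values were 3.35, 3.48, 5.56 and 2.52 CPM in infarct and 0.106, 0.6, 0.515 and 0.138 CPM in remote tissue. The rises were 3.39 ± 0.45 and 3.50 ± 0.40 (adjusted p = 1.37e-05 and 2.21e-06). On day 28 IL1R2 was at 1.263, 0.399 and 0.416 CPM in the PBS infarct libraries and 0.621, 0.351 and 0.0903 CPM in the remote ones. In rhAgrin animals IL1R2 was at 0.268, 0.155, 0.204 and 0.217 CPM and 0.336, 0.146, 0.328 and 0.131 CPM in the same zones. On day 28 the zones overlapped in both treatments.

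IL4R, the alpha chain for IL4 and IL13, was at 48.1 CPM or more in every library. PBS infarcts held IL4R at 150.3, 181.8 and 204.8 CPM on day 3, against 92.02, 77.7 and 72.8 CPM in their remote zones. With rhAgrin, IL4R was at 130.4, 154.9, 165.6 and 181.7 CPM in the infarct and 78.2, 93.7, 48.2 and 111.3 CPM in the remote zone. It rose by 1.14 ± 0.20 and 0.98 ± 0.17 (adjusted p = 0.000161 and 0.000152), whereas its partner IL13RA1, with which it forms the IL13 receptor, moved the other way. For IL13RA1 the day 3 values were 116.5, 133 and 113.9 CPM in PBS infarct and 171.2, 195.2 and 209.4 CPM in PBS remote tissue. The rhAgrin IL13RA1 values were 117, 146.1, 116 and 108.2 CPM in infarct and 161.5, 196.8, 202.8 and 155.2 CPM in remote tissue. IL13RA1 fell by 0.66 in PBS and by 0.56 in rhAgrin animals (SE 0.10 and 0.09, adjusted p = 6.75e-05 and 7.65e-05), while with library totals alone the values were -0.009 and 0.151. IL13RA2, the decoy receptor of IL13, did not pass the test in any comparison. IL13RA2 measured 1.61, 1.39 and 0.147 CPM in the infarct and 2.66, 1.32 and 0.446 CPM in the remote zone of PBS animals on day 3. rhAgrin animals had IL13RA2 at 1.23, 1.02, 0.784 and 0.36 CPM in the infarct and 1.65, 1.35, 0.573 and 0.876 CPM in the remote zone. Its zones overlapped in both treatments. On day 28 IL4R was at 77.8, 82.3 and 67.7 CPM in the PBS infarct libraries and 48.1, 71.1 and 57.4 CPM in the remote ones. With rhAgrin, IL4R was at 60.2, 63.6, 78.4 and 58.1 CPM in the infarct and 63.4, 51.6, 61.2 and 51.97 CPM in the remote zone. The IL4R zones overlapped on that day. PBS infarcts held IL13RA1 at 166.1, 161.1 and 172.6 CPM on day 28, against 185.4, 180.8 and 191.4 CPM in their remote zones. The rhAgrin IL13RA1 values were 162.3, 155.9, 177 and 175.4 CPM in infarct and 151.8, 166.7, 179.6 and 159.4 CPM in remote tissue. On day 28 no zone difference of these 3 receptors passed the test. For IL13RA2 the day 28 values were 1.68, 0.732 and 1.36 CPM in PBS infarct and 4.13, 0.527 and 0.271 CPM in PBS remote tissue. rhAgrin animals had IL13RA2 at 1.82, 1.15, 0.654 and 0.47 CPM in the infarct and 0.925, 1.24, 0.797 and 0.918 CPM in the remote zone. These zones overlapped as well.

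IL6R, the receptor chain that binds IL6, and IL6ST, through which it signals, form the receptor of IL6. IL6R measured 25.5, 16.1 and 15.4 CPM in the infarct and 22.03, 23.5 and 21.2 CPM in the remote zone of PBS animals on day 3. In rhAgrin animals IL6R was at 18.5, 22.4, 16.4 and 14.3 CPM and 24.5, 26.9, 16.4 and 21.5 CPM in the same zones. The IL6R fold changes were -0.26 ± 0.16 in PBS and -0.32 ± 0.14 in rhAgrin animals (adjusted p = 0.168 and 0.0552). On day 3 IL6ST was at 81.4, 83.5 and 79.04 CPM in the PBS infarct libraries and 112, 93.5 and 108.1 CPM in the remote ones. The rhAgrin IL6ST values were 87.9, 102.5, 99.2 and 84.01 CPM in infarct and 98.1, 100.3, 91.6 and 111.9 CPM in remote tissue. IL6ST fell by 0.36 in PBS animals (SE 0.13, adjusted p = 0.0283) with the zones apart, and gave -0.11 ± 0.12 in rhAgrin animals, but with library totals alone the PBS value was 0.295, and without animal 571 or 575, and in a fit of that group alone, the call was lost. In rhAgrin animals IL6R was called lower by DESeq2 and with its size factors in edgeR, and IL6R and IL6ST were called higher with library totals alone, so their direction depends on the scaling. PBS infarcts held IL6R at 12.8, 26.5 and 22.5 CPM on day 28, against 19.2, 26.4 and 33.2 CPM in their remote zones. rhAgrin animals had IL6R at 19.8, 20.4, 21.2 and 20.5 CPM in the infarct and 25.01, 22.4, 20.2 and 19.7 CPM in the remote zone. The IL6R zones overlapped in both treatments. For IL6ST the day 28 values were 171.6, 104.3 and 112.3 CPM in PBS infarct and 114.1, 100.8 and 86.3 CPM in PBS remote tissue. In rhAgrin animals IL6ST was at 95.3, 115.5, 100.8 and 102.9 CPM and 118.9, 101.7, 92.4 and 96.02 CPM in the same zones. The IL6ST value of PBS animal 523, 172 CPM in the infarct zone, was the highest of the 28.

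IL27RA, the specific chain for IL27, rose by 2.20 ± 0.18 in PBS and 2.10 ± 0.16 in rhAgrin animals (adjusted p = 1.95e-07 and 4.45e-08). IL27RA measured 32.4, 28.2 and 37.5 CPM in the infarct and 9.51, 4.2 and 8.25 CPM in the remote zone of PBS animals on day 3. With rhAgrin, IL27RA was at 30.2, 24.3, 35.1 and 37.4 CPM in the infarct and 6.06, 6.35, 6.64 and 10.97 CPM in the remote zone. The lowest infarct value was 24.3 CPM and the highest remote value 10.97 CPM. On day 28 IL27RA was at 16.1, 11.6 and 16.6 CPM in the PBS infarct libraries and 8.95, 6.9 and 10.5 CPM in the remote ones. rhAgrin animals had IL27RA at 5.35, 9.09, 9.73 and 9.11 CPM in the infarct and 6.47, 6.41, 8.34 and 7.3 CPM in the remote zone. On day 28 the PBS zones stayed apart, with a rise of 0.75 ± 0.17 (adjusted p = 0.00834). IL31RA, a receptor chain that pairs with OSMR for IL31, passed a zone test on day 28. PBS infarcts held IL31RA at 2.82, 1.78 and 1.36 CPM on day 3, against 1.64, 2.26 and 2.1 CPM in their remote zones. In rhAgrin animals IL31RA was at 1.93, 1.97, 2.16 and 3.27 CPM and 1.12, 0.7, 2.004 and 2.49 CPM in the same zones. No zone difference passed on day 3. For IL31RA the day 28 values were 8.25, 2.23 and 2.23 CPM in PBS infarct and 4.09, 1.54 and 0.858 CPM in PBS remote tissue. With rhAgrin, IL31RA was at 2.78, 2.89, 3.19 and 3.11 CPM in the infarct and 0.925, 3.2, 2.06 and 2.75 CPM in the remote zone. The PBS rise on day 28 was 0.96 ± 0.33 (adjusted p = 0.0492), near the threshold, and it was lost without any 1 of the 3 PBS animals.

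Both chains of the IL10 receptor rose on day 3. IL10RA measured 129.6, 88.5 and 84.2 CPM in the infarct and 62.9, 34.9 and 51.4 CPM in the remote zone of PBS animals on day 3. The rhAgrin IL10RA values were 89.4, 97.6, 78.5 and 78.6 CPM in infarct and 60.8, 45.9, 21.4 and 33.97 CPM in remote tissue. IL10RA rose by 1.03 ± 0.23 and 1.18 ± 0.20 (adjusted p = 0.00117 and 0.000117), and IL10RB, the chain shared by the IL10 and IL22 receptors, rose by 2.52 ± 0.17 and 2.38 ± 0.15 (adjusted p = 3.43e-08 and 7.95e-09), from 4.38 to 7.93 CPM in the day 3 remote libraries to 28.5 to 43.7 CPM in the day 3 infarct libraries. On day 28 IL10RA was at 45.9, 68.5 and 59.3 CPM in the PBS infarct libraries and 30.3, 49.1 and 48.9 CPM in the remote ones. In rhAgrin animals IL10RA was at 33.5, 28.7, 41.4 and 34.2 CPM and 52.4, 19.6, 35.3 and 39.8 CPM in the same zones. IL10RB in the day 28 infarct libraries was 4.50 to 9.37 CPM.

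IL17RA, the chain common to most IL-17 receptors, lay between 65.8 and 81.7 CPM in all 7 day 3 infarct libraries. PBS infarcts held IL17RA at 77.3, 77.7 and 81.7 CPM on day 3, against 26.1, 31.1 and 22.8 CPM in their remote zones. With rhAgrin, IL17RA was at 76.5, 71.4, 65.8 and 80.1 CPM in the infarct and 30.2, 24.9, 20.4 and 24.9 CPM in the remote zone. It rose by 1.58 ± 0.12 and 1.56 ± 0.10 (adjusted p = 5.95e-08 and 9.77e-09). For IL17RA the day 28 values were 37.9, 24.9 and 25.95 CPM in PBS infarct and 32.6, 19.3 and 26.3 CPM in PBS remote tissue. The rhAgrin IL17RA values were 19.5, 22.4, 24.4 and 21.3 CPM in infarct and 20.3, 20.4, 19.9 and 18.9 CPM in remote tissue. Neither treatment passed the test on day 28. IL17RD, known as SEF and a brake on FGF signalling as well as an IL-17 receptor chain, was -0.41 ± 0.25 in PBS animals (adjusted p = 0.159) and rose by 0.76 ± 0.21 in rhAgrin animals (adjusted p = 0.00578). IL17RD measured 3.54, 2.43 and 1.95 CPM in the infarct and 3.23, 2.65 and 4.55 CPM in the remote zone of PBS animals on day 3. rhAgrin animals had IL17RD at 3.78, 3.98, 4.18 and 3.18 CPM in the infarct and 1.49, 2.1, 3.67 and 1.98 CPM in the remote zone. The difference between the 2 treatments was 1.17 ± 0.33 with an unadjusted p of 0.00318 and did not pass after adjustment. On day 28 IL17RD was at 10.2, 5.56 and 5.11 CPM in the PBS infarct libraries and 7.3, 4.57 and 3.61 CPM in the remote ones. With rhAgrin, IL17RD was at 4.44, 3.04, 3.11 and 3.69 CPM in the infarct and 5.47, 4.4, 5.48 and 5.86 CPM in the remote zone. On day 28 every rhAgrin animal was lower in the infarct than in the remote zone and every PBS animal higher, and neither treatment passed the test of zones, nor did the difference between them (-0.999 ± 0.306, adjusted p = 0.0947). The difference was called lower by DESeq2 and with library totals alone, and with library totals alone the PBS rise of IL17RD was called as well.

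**Figure D3:**
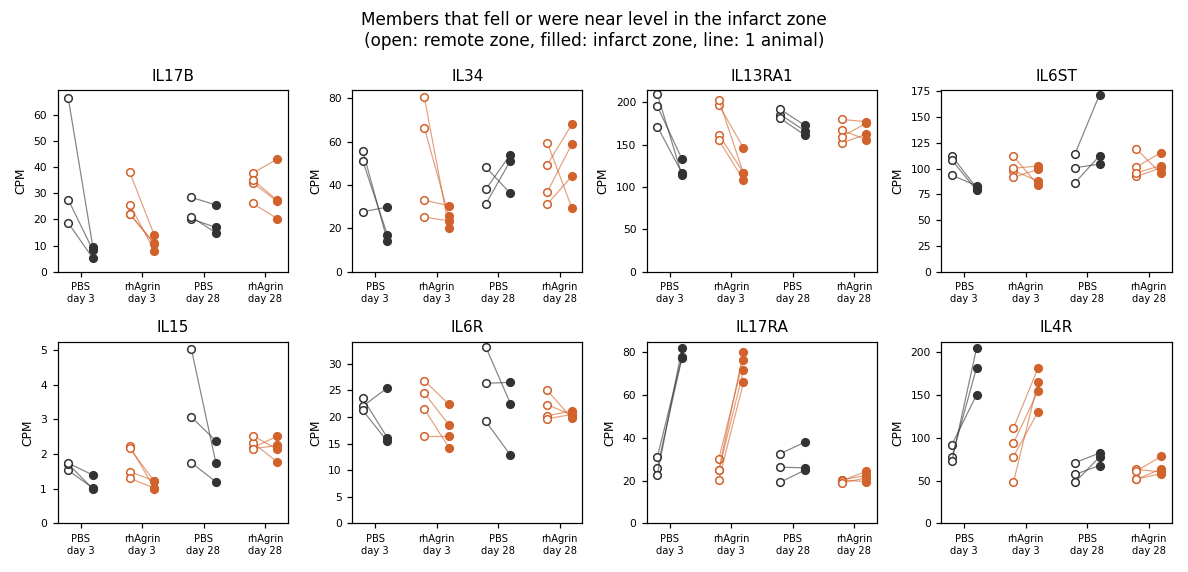
CPM of 8 members by zone, treatment and day, with remote (open) and infarct (filled) values of an animal joined by a line and linear axes from 0. IL17B values fall in every day 3 animal, whereas IL17RA and IL4R rise on day 3 and passed no zone test on day 28. IL4R in PBS animal 523 was at 77.8 CPM in the infarct and 48.1 CPM in the remote zone on day 28.

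The other 12 tested members follow more briefly. IL7, IL18RAP, IL1RAP, IL17D and IL25 rose in rhAgrin and not in PBS animals on day 3, by 1.59 ± 0.54, 2.72 ± 0.78, 1.03 ± 0.38, 0.83 ± 0.14 and 1.31 ± 0.34, and the difference between treatments passed the test for none of them. IL7 lost the call without animal 570 or 577. IL1RAP, at 0.54 without animal 577, lost it without animal 576 or 577, with no block and in a fit of the rhAgrin day 3 libraries alone. In PBS animals IL25 was called higher without animal 573. Without animals 573 and 577, IL1RAP and IL25 were called higher in PBS animals, and IL7 and IL1RAP were no longer called in rhAgrin animals. With library totals alone IL7, IL1RAP, IL17D and IL25 were called higher in PBS animals too. IL18RAP had 0 counts in 3 of the 4 rhAgrin remote libraries (45 counts over the infarct and 5 over the remote libraries), so its fitted value depends on the prior count. IL27, a subunit of the gp130 ligand of that name, rose by 1.53 ± 0.42 and 2.51 ± 0.38, the PBS call being lost without animal 571 or 575, and IL4I1 by 0.61 ± 0.10 and 0.58 ± 0.08. IL17RB, which shares 845 of 2098 exonic bases with ACTR8 on the opposite strand, fell by 0.65 in rhAgrin animals, and with library totals alone it was 0.055. Its call was also lost without animal 570 or 572 (adjusted p = 0.0517 and 0.0837 by edgeR). IL17D shares 1345 of 1745 exonic bases with EEF1AKMT1. IL12RB1, IL12RB2, IL20RA and IL2RA passed no zone test in either treatment.

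The other 8 members were below the filter and had no part in the tests above, and a count of 0 in a library allows up to 3. IL13 had 18, 3 and 5 counts in the PBS day 28 infarct libraries, 1 count in total in their remote libraries, and at most 2 counts in any other library. IL5RA had 7, 2 and 9 counts in the same infarct libraries and 2 in total in their remote libraries. IL23R reached 19 counts over the 4 rhAgrin day 3 infarct libraries and 1 in their remote libraries, and IL5 reached 24 over the 3 PBS day 3 infarct libraries and 3 in their remote libraries. IL18BP, the soluble binder of IL18, held 22 and 14 counts over the PBS and rhAgrin day 3 infarct libraries and 3 in each remote group. IL1RAPL2, IL1RL2 and IL22RA1 held at most 16 counts over any group of libraries. The 4 receptor genes without a symbol, which are not members, passed the filter. On day 3 IL2RG rose by 3.27 in PBS and 3.212 in rhAgrin animals. IL11RA was lower, at -2.175 and -1.859, and so was IL2RB, at -1.294 and -0.949. IL9R passed only in rhAgrin animals, at 1.539.

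Of 50 signalling partners that are not members, 45 were in the tables and tested. On day 3, 33 rose and 6 fell in PBS animals and the same numbers held in rhAgrin animals. Of all genes 34.6% rose and 32.2% fell in PBS animals, and 37.6% and 33.1% in rhAgrin animals. The largest rises were PYCARD, the inflammasome adaptor (4.56), LIF (4.33) and OSM (4.10) in PBS animals, and OSM (4.67), CSF2RB (4.08) and PTPN6 (3.96) in rhAgrin animals. CTF1, LIFR and CISH fell most, by 3.57, 1.80 and 3.02 in PBS and by 2.81, 1.03 and 2.50 in rhAgrin animals. LIF and OSM are ligands of gp130, as is CTF1, and LIFR is the receptor chain through which LIF acts.

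Several of the listed cell markers also differed between the zones on day 3. Summed macrophage markers were 1008 to 1931 CPM in the day 3 infarct libraries against 71.39 to 263 CPM in the remote ones, neutrophil markers 51.97 to 100.3 against 1.06 to 4.982 CPM, T and NK cell markers 87.72 to 114.9 against 12.5 to 30.83 CPM, and fibroblast markers 14880 to 40620 against 3415 to 13610 CPM. Cardiomyocyte markers were 2312 to 16090 CPM in infarct against 57680 to 77400 CPM in remote libraries, and 6 of 6 fell in both treatments. Of the listed macrophage markers 6 of 8 were in the tables, of which 5 rose in PBS and 6 in rhAgrin animals. Of 7 tested T and NK cell markers 4 rose in PBS and 5 in rhAgrin animals. Of 5 fibroblast markers 4 rose in each treatment, and 1 fell in PBS animals. Endothelial markers did not follow, as 0 of 5 rose and 1 fell in each treatment. Of 3 tested mast cell and eosinophil markers 1 rose in each. Their part in the result was not tested.

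By day 28 the zones were closer. In PBS animals 9 of 39 members rose and 1 fell, where 12.7% of all genes rose and 12.3% fell. Of the 9, 7 were among the 20 of 39 members that had risen on day 3, and the matching share of all genes was not counted. The rises were 2.04 ± 0.33 for IL21R, 1.77 ± 0.37 for IL1RL1 and 1.21 ± 0.32 for IL18, the 3 largest, followed by IL17C, IL31RA, IL1R1, IL17D, IL27RA and IL10RB, and IL15 fell. At the study's thresholds 4 members were called, where 7.83% of all genes were. Animal 523 carried most of the calls: without it 2 rose (IL1R1 and IL21R) and 0 fell, where 637 of 15621 genes rose and 215 fell. With no block for animal the counts were 2 and 0, where 845 and 294 of all genes passed. In a fit of the PBS day 28 libraries alone they were 0 and 0, where 4 and 0 of 14226 genes passed, so that fit says nothing of the members in particular. With library totals alone, which shifts the median of all genes to 0.333, they were 17 and 0, where 5161 and 491 of all genes passed. Summed fibroblast markers in the PBS day 28 infarct libraries were 11790 to 48960 CPM and cardiomyocyte markers 8839 to 46220 CPM, the extremes being those of animal 523. Their part in the result was not tested.

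In rhAgrin animals 0 of 39 members rose and 0 fell on day 28, where 0% of all genes were called. By edgeR 2 members and 599 of 15409 genes had an unadjusted p under 0.05 (IL27 at -1.36 and IL17RD at -0.58), and DESeq2 called 0 members and 4 of all genes. Summed cardiomyocyte markers were 54810 to 63720 CPM in the infarct and 59880 to 64390 CPM in the remote libraries of these animals. None of the 6 passed the test between the zones, but no gene did, so that says nothing of these markers in particular. Fibroblast markers, 5870 to 15140 against 4438 to 7877 CPM, were higher in the infarct of each animal. So were neutrophil markers, at 3.597 to 8.1 against 2.203 to 4.589 CPM. Macrophage markers were 184 to 288.7 against 180.9 to 246.2 CPM, and lower in the infarct of animal 519. Their part in the result was not tested.

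**Figure D4:**
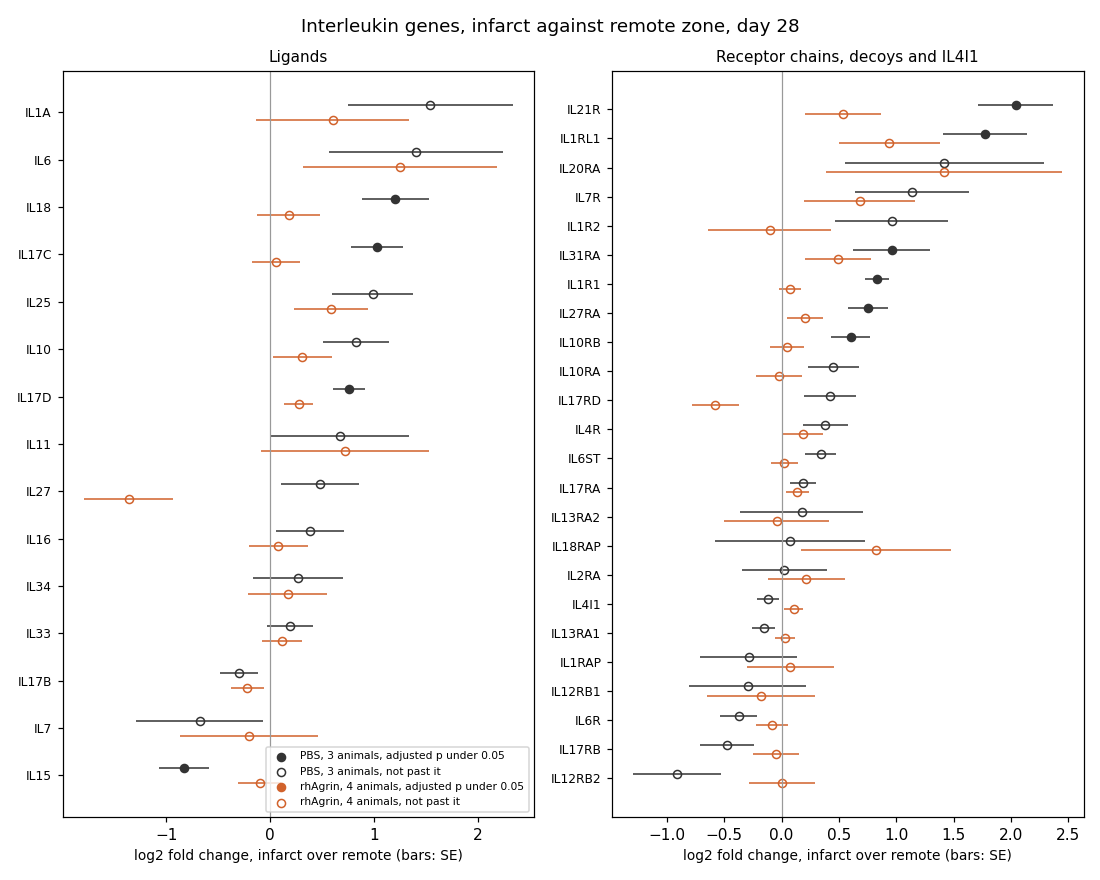
Log2 fold changes of the 39 tested members between the infarct and remote zone on day 28, in PBS (black, 3 animals) and rhAgrin (orange, 4 animals), laid out as for day 3, with SE bars and filled points at adjusted p under 0.05. IL21R is the highest filled receptor at 2.04, and no rhAgrin point is filled.

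Whether rhAgrin altered the response was tested as the difference between the 2 infarct against remote changes. On day 3, 0 of 39 members passed, where 0% of all genes did. By edgeR 4 members (IL17RD, IL17B, IL1R1 and IL17D) and 684 of 15409 genes had an unadjusted p under 0.05, and DESeq2 called 0. On day 28, IL1R1 was the 1 member that passed, lower by 0.76 ± 0.14 in rhAgrin animals (adjusted p = 0.035), where 0.617% of all genes were lower and 0.0519% higher, and at the study's thresholds 0 members passed, where 0.487% of all genes did. The log2 ratio of infarct to remote in each animal was 1.06, 0.74 and 0.69 in PBS and 0.053, -0.004, -0.038 and 0.283 in rhAgrin animals, without overlap. With no block for animal 0 members and 1 of all genes passed, and the call was lost on leaving out 6 of the 7 animals in turn, remaining only without animal 547. IL1R1 in the remote zone was also lower in rhAgrin animals, by 0.70 ± 0.24 (unadjusted p = 0.0116), which did not pass after adjustment.

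The infarct libraries alone gave a wider difference. On day 3, 0 members differed between rhAgrin and PBS, where 0% of all genes did, 1 (IL7R at -1.08) and 170 of 14968 genes had an unadjusted p under 0.05 by edgeR, and DESeq2 called 0. On day 28, 8 of 39 were lower in rhAgrin animals and 0 higher, where 6.02% of all genes were lower and 1.3% higher. The 8 were IL1RL1 (-2.39 ± 0.50, adjusted p = 0.0197), IL21R (-2.38 ± 0.54, adjusted p = 0.0254), IL6 (-2.38 ± 0.66, adjusted p = 0.0477), IL1R2 (-1.70 ± 0.47, adjusted p = 0.0448), IL1R1 (-1.48 ± 0.25, adjusted p = 0.0115), IL17RD (-0.94 ± 0.27, adjusted p = 0.0478), IL27RA (-0.80 ± 0.22, adjusted p = 0.0436) and IL10RA (-0.74 ± 0.19, adjusted p = 0.0373). The libraries of the treatments did not overlap for 15 of the 39 members, these 8 among them. The share of all genes without overlap was not counted, so the lack of overlap adds no support of its own. 3 of the 8 belong to the IL-1 family, as do 8 of the 39 tested members. The study's thresholds left 5 members, where 4.3% of all genes were called.

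Only IL1R1 stayed past the threshold on leaving out any of the 7 day 28 animals in turn. Without animal 523 the count was 2 (IL1R1 and IL10RA), where 165 of 15208 genes were lower, and without animal 519 or 544 it was 1, where 167 of 14917 and 138 of 14919 genes were. Without animal 523 IL6 was at -1.045, IL1R2 at -0.954, IL17RD at -0.571, IL27RA at -0.739, IL21R at -1.551 and IL1RL1 at -1.747. Over the leave-outs the count was 1 to 10. Without animals 573 and 577, both day 3 animals that share the fit, it was 3, where 558 of 15244 genes were lower. In the day 28 infarct libraries macrophage markers summed to 315.8 to 523.6 CPM in PBS and 184 to 288.7 CPM in rhAgrin animals, without overlap. Cardiomyocyte markers summed to 8839 to 46220 and 54810 to 63720 CPM, also without overlap. The sums of every other listed cell type overlapped, such as fibroblast markers at 11790 to 48960 and 5870 to 15140 CPM. Of 6 tested macrophage markers 2 were lower in rhAgrin animals, and of 6 cardiomyocyte markers 0 passed. Their part in the result was not tested.

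**Figure D5:**
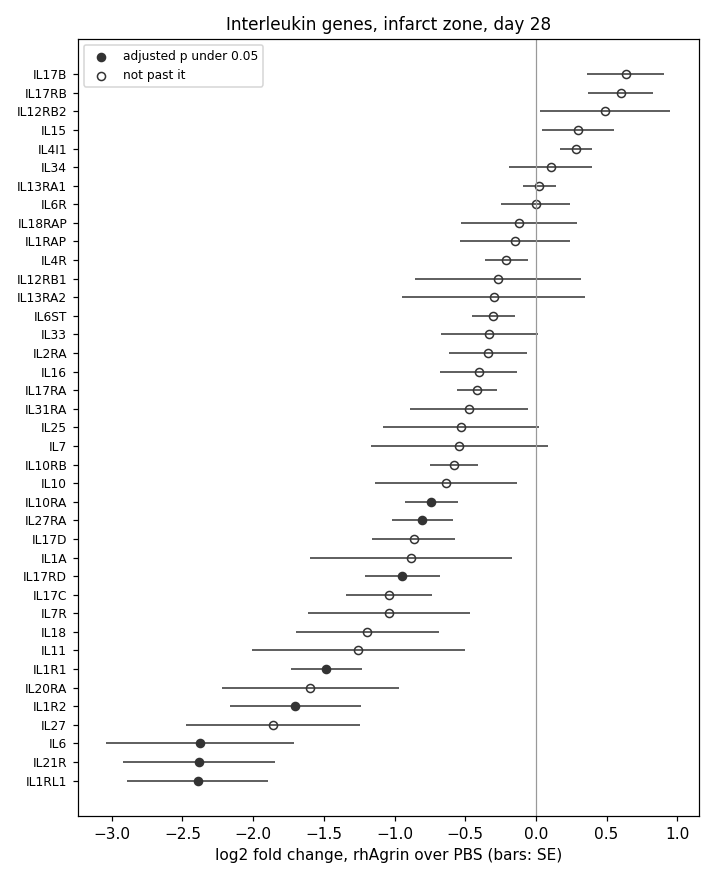
Log2 fold changes between rhAgrin and PBS in the infarct zone on day 28 for the 39 members tested in the infarct libraries (3 PBS and 4 rhAgrin animals), with SE bars. The 8 filled points, all below 0, passed adjusted p under 0.05, from IL1RL1 at -2.39 to IL10RA at -0.74.

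Among the 45 signalling partners in the same libraries 11 were lower in rhAgrin animals and 0 higher, beside the 6.02% and 1.3% of all genes given above. They included MYD88 (-0.77), IRAK2 (-0.77), IRAK4 (-0.85), NFKBIZ (-1.81), JAK2 (-0.75), JAK3 (-0.84) and STAT3 (-0.58). The receptor chains CSF2RB (-1.65) and OSMR (-1.08), and CLCF1 (-1.47), a gp130 ligand, were lower too. These partners were named after their values were seen, and the partners were not tested again with animals left out. Without animal 523, 165 of 15208 genes were lower, where 901 of 14968 were with it. OSMR was also the 1 partner that passed in the difference of responses, at -0.86.

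Day 28 was also compared with day 3. The infarct against remote change was lower on day 28 for 13 of 39 members in PBS animals and higher for 3, where 22.3% and 20.6% of all genes were. In rhAgrin animals it was lower for 19 and higher for 2, where 29.8% and 26.5% of all genes were. The 3 that were higher in PBS animals (IL17B, IL13RA1 and IL6ST) had all fallen on day 3. In the infarct libraries alone 12 members were lower and 7 higher on day 28 in PBS animals, against 21.7% and 25.6% of all genes, and 22 lower and 6 higher in rhAgrin animals, against 29.5% and 32.4%. The study's thresholds called 11 and 16 members in the PBS and rhAgrin responses, where 24.5% and 32.6% of all genes were called, and 13 and 20 in the PBS and rhAgrin infarcts, where 26% and 33.9% were. With library totals alone 1 member was higher and 17 lower in the PBS response, 0 and 26 in the rhAgrin response, 3 and 13 in PBS infarcts and 1 and 23 in rhAgrin infarcts. Under that scaling 1968 genes were higher and 5224 lower of all 15409 in the PBS response, 1991 and 8205 in the rhAgrin response, and 2062 and 4473 of 14968 in PBS and 2378 and 7414 in rhAgrin infarcts. The lowest values in PBS infarcts were -2.89 for IL7R, -2.54 for IL1R2 and -2.25 for IL10RB, and in rhAgrin infarcts -4.04 for IL1R2, -3.19 for IL1RL1 and -3.00 for IL6. IL17RD at 1.45, IL17B at 1.40 and IL34 at 1.30 rose most in PBS infarcts, and IL17B at 1.53, IL34 at 1.11 and IL15 at 1.04 in rhAgrin infarcts.

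In the remote zone 31 members were tested. None passed in any of the 4 comparisons of treatment or day, where 0% of all genes did. By edgeR 0, 2, 1 and 4 members had an unadjusted p under 0.05 for rhAgrin against PBS on day 3, on day 28, and day 28 against day 3 in PBS and in rhAgrin animals, as did 554, 656, 1465 and 1294 of 14324 genes, and DESeq2 called 0, 0, 0 and 1 (IL17RD).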

How the data were processed

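Bulk polyA RNA was sequenced from paired infarct and remote zones of 14 pigs, and samples were grouped by the zone, treatment and day in their labels. Per the submitters' processing notes and the study's methods, base calls were converted with bcl2fastq 2.20.0.422, reads were trimmed with cutadapt, aligned with STAR 2.7.3a to Sscrofa11, freed of duplicates with Picard 2.22.4 and counted with HTSeq, and DESeq2 1.26.0 was used. The authors deposited raw counts per gene and normalized signal values, the counts divided by a size factor per library, set separately for each treatment and time (checked on 290050 values, largest relative gap 6.8e-05). Only the counts were tested. Whether counting used strand is not given in the sources used here.

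Counts were tested with edgeR 4.0.16 (R 4.3.3): filterByExpr by group, TMM, robust quasi-likelihood, Benjamini-Hochberg adjustment. A fit of 28 libraries and 15409 genes had animal as a block, since both zones came from 1 animal, and 1 infarct coefficient per treatment and day. Fits of the 14 infarct libraries (14968 genes) and the 14 remote libraries (14324 genes) compared treatments and days. Residuals of the zones of an animal correlated at 0.0696 to 0.683 (median 0.384, across genes, which are not independent replicates). SE was taken as the size of the log2 change divided by the root of its F. Totals were 15.38 to 34.77 M counts. The labels do not describe the sampling of tissue beyond the animal, and floors for counts of 0 cover counting error only. The SE rests on 1 spread per gene, estimated over all libraries of a fit and drawn toward that of other genes. It is therefore not the spread between the animals of 1 group. In the fit with animal as a block it also leaves out differences in level between animals. The fit was also run on simulated data, but the outcome is not given here and supports no result.

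Values in every library are given for 20 members chosen for their role, the 5 largest changes per zone comparison and any member called between treatments, 25 in all. Only changes past adjusted p under 0.05 counted for the 5 largest, so the rhAgrin day 28 comparison added none. IL10RB and IL17B were added after their values were seen. The members and lists were chosen with earlier results of these data known. Alternatives were DESeq2 1.42.0, other scalings, filters and thresholds, no block, separate fits, and leaving out animals. Gene positions and sequences are from RefSeq Sscrofa11.1, matched by symbol for 47 of 47 members; the NF-kB pattern was narrowed after a looser one had been counted. Columns of the authors' own comparisons were not used.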

Additional observations from a re-analysis of the deposited data

Results flagged for a closer look

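Among 100 groups of 4 rhAgrin libraries, 5 held a library far from the other 3, where chance alone flags about 1 in 20. In the day 3 remote zone, animal 577 had 0.784 CPM of IL18 where the others had 0.266 to 0.344 CPM, 0.277 CPM of IL10 where the others had 0.515 to 0.55 CPM, and 10.97 CPM of IL27RA where the others had 6.06 to 6.64 CPM. Animal 576 had 9.79 CPM of IL16 in that zone, against 5.05 to 5.67 CPM. In the day 28 infarct zone, animal 519 had 5.35 CPM of IL27RA, against 9.09 to 9.73 CPM.

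The infarct against remote change of IL1R1 on day 28 differed between rhAgrin and PBS animals by -0.76 on the log2 scale, tested as a contrast of the fit by edgeR.

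The same kind of contrast compared day 28 with day 3 within PBS animals, and 16 members passed, where 20.6% of all genes were higher and 22.3% lower. The differences were -1.998 for IL10, -1.92 for IL10RB, -3.74 for IL11, -1.36 for IL17C, -1.39 for IL17RA and -1.26 for IL18. They were -0.62 for IL1R1, -2.43 for IL1R2, -1.45 for IL27RA, -1.36 for IL33, -0.73 for IL4I1, -0.76 for IL4R and -3.98 for IL7R. IL13RA1, IL17B and IL6ST went the other way, at 0.51, 1.83 and 0.70.

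In rhAgrin animals 21 members passed between the days, where 26.5% of all genes were higher and 29.8% lower. The ligands stood at -2.58 for IL10, -1.38 for IL16, -2.67 for IL17C, -0.55 for IL17D, -2.79 for IL18, -3.87 for IL27 and -1.40 for IL33. The receptors, the decoy IL1R2 and IL4I1 stood at -1.20 for IL10RA, -2.33 for IL10RB, -1.42 for IL17RA, -1.34 for IL17RD, -1.76 for IL1R1, -3.61 for IL1R2, -2.81 for IL1RL1, -2.85 for IL21R, -1.89 for IL27RA, -0.47 for IL4I1, -0.80 for IL4R and -3.21 for IL7R. IL13RA1 was at 0.58 and IL17B at 1.07.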

How the results depend on the processing

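Of the 157 calls of a member in a comparison, 156 held with DESeq2, 155 with its size factors in edgeR, 154 without a filter, 137 with library totals alone and 142 without animals 573 and 577, an alternative chosen after seeing the data. With no replicate block 88 of 102 held, and in separate fits 47 of 60. Leaving out animals kept 777 of 885 calls and reversed 0. The signs that turned did so with library totals alone: on day 3 IL6ST in PBS animals (0.295) and IL15 (0.044), IL13RA1 (0.151) and IL17RB (0.055) in rhAgrin animals, and between days in rhAgrin animals IL13RA1 in the response (-0.049) and in the infarct zone (-0.038) and IL17RB in the infarct zone (-0.002). The cause was not tested.

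Counts of members that moved were as follows. The thresholds of the study left 2 lower members in PBS and 1 in rhAgrin animals on day 3, 4 higher and 0 lower in PBS on day 28, 0 lower in the day 28 response, 1 higher in the PBS and 1 in the rhAgrin response between days, 5 lower in the day 28 infarct zone under rhAgrin, and 3 and 3 higher between days in PBS and rhAgrin infarcts. Library totals alone gave 1 and 1 lower on day 3, 17 higher and 0 lower in PBS on day 28, 5 lower in the day 28 response, 1 and 0 higher in the PBS and rhAgrin responses between days, and 3 and 1 higher between days in PBS and rhAgrin infarcts. Separate fits gave 2 lower in PBS on day 3, and 0 and 0 on day 28. No replicate block gave 2 higher and 0 lower in PBS on day 28 and 0 lower in the day 28 response. DESeq2 gave 2 lower in the day 28 response, 5 higher in the PBS response between days, 1 higher in the day 28 infarct zone and 1 higher between days in the rhAgrin remote zone. Without animals 573 and 577, 3 were lower in the day 28 infarct zone.

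Leaving out 1 animal gave 2 to 9 higher and 0 to 2 lower members in PBS on day 28, 0 to 2 lower in the day 28 response, 2 to 5 higher in the PBS response between days and 1 to 10 lower in the day 28 infarct zone. With no filter IL23R, at 19 against 1 counts, passed in rhAgrin animals on day 3 (3.27, adjusted p = 0.04). Without the filter IL13 also passed between days in PBS infarcts (4.26, adjusted p = 0.00889), and IL1RL2 (3.62, adjusted p = 0.0399) and IL1RAPL2 (2.58, adjusted p = 0.0295) in rhAgrin infarcts, fitted values that depend on the prior count.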
